A study of Homo sapiens with 12 samples.

Results

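The snoRNA host RNAs GAS5, SNHG1, SNHG5, ZFAS1 and EPB41L4A-AS1 were examined in a map of protein-protected RNA sites from HEK293T cells, a human embryonic kidney line. A site was counted for a host when its midpoint fell within a fixed hg19 region on the strand of that RNA. The regions were chr1:173833000-173837200 on the minus strand for GAS5, chr11:62619400-62623400 minus for SNHG1, chr6:86386700-86388500 minus for SNHG5, chr20:47894500-47905800 plus for ZFAS1 and chr5:111496200-111500000 plus for EPB41L4A-AS1. They held 399 of the 513381 sites in the 6 replicate lists: 127 in GAS5, 124 in SNHG1, 90 in ZFAS1, 38 in SNHG5 and 20 in EPB41L4A-AS1.

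The assay, protein interaction profile sequencing, compares RNA digested while proteins are bound (a footprint) with RNA digested after the proteins are removed (a digestion control). The HEK293T material was fixed with 1% formaldehyde in every group, and the 12 libraries form 4 groups of 3: ssRNase footprint, dsRNase footprint, and the digestion control of each nuclease. The ssRNase was RNase ONE, which cuts single-stranded RNA, and the dsRNase was RNase V1, which cuts paired RNA. Each of the 6 lists was made by the authors from footprint and control libraries of 1 nuclease and replicate number, so that background without protein is already part of every site. The labels do not say that the replicates were separate cultures, so the spread between them may be technical.

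The lists were of unequal length. There were 209922, 57481 and 172079 sites in ssRNase lists 1, 2 and 3. The dsRNase lists had 23925, 28413 and 21561. The share of protected bases on the minus strand was 54.8% to 60.9% in the ssRNase lists and 64.5% to 78.5% in the dsRNase lists. Read depth is unknown, because the lists hold positions and scores and no reads. A host with more RNA can also give more sites, and RNA level and protein occupancy cannot be told apart here.

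Small nucleolar RNAs (snoRNAs) guide chemical modification and processing of other RNAs, mainly ribosomal RNA. Most human snoRNAs lie in introns of a host gene and are trimmed out of the excised intron, where core proteins bind them early. Box C/D snoRNAs (SNORD) guide ribose methylation and carry a C box near the 5′ end and a D box near the 3′ end, while box H/ACA snoRNAs (SNORA) guide pseudouridylation and end in an ACA box. The spliced exons of GAS5 and related hosts code for no long protein, are engaged by ribosomes and are degraded by nonsense-mediated decay. Several of these hosts begin with a terminal oligopyrimidine tract, as messenger RNAs for ribosomal proteins do.

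By the names and order of genes in RefSeq (GRCh38.p14), 26 snoRNA genes lie inside the 5 hosts: 11 in GAS5, 9 in SNHG1, 3 in ZFAS1, 2 in SNHG5 and 1 in EPB41L4A-AS1. They are 60 to 133 bases long, with a median of 75. GENCODE v29 transcripts gave the sequence of 11 of the 26. The 3 snoRNAs of ZFAS1 are shown because they belong to 1 family, with the C box letters TGATGA and the D box letters CTGA in capitals.
SNORD12: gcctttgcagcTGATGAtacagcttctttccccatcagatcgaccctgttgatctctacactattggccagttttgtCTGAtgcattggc
SNORD12B: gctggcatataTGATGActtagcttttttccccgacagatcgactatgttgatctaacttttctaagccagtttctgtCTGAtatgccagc
SNORD12C: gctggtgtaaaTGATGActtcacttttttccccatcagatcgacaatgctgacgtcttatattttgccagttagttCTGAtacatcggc

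SNHG5 and SNHG1 carry other box C/D snoRNAs, of which SNORD50B and SNORD27 are shown with the same capitals. SNORA13 of EPB41L4A-AS1 is shown as the single H/ACA snoRNA with a sequence, with its ACA box in capitals.
SNORD50B: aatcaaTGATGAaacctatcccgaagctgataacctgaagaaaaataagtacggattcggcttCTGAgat
SNORD27: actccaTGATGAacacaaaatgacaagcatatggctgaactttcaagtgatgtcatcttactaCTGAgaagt
SNORA13: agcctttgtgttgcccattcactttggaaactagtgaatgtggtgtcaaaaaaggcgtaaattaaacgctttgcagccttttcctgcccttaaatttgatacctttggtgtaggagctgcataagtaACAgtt

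Searched as exact letters on the RNA's own strand, TGATGA was in the first 20 bases of 7 of 10 host SNORDs and of 69.5% of all 275 SNORD genes with a sequence. CTGA was in the last 20 bases of 10 of 10 and of 94.9%. The longest stretch shared by SNORD12, SNORD12B and SNORD12C was CAGATCGAC, which 0 of the other snoRNAs held. ACA stood 3 bases from the end in 75.4% of SNORA genes. No hg19 annotation was used, so a site could not be assigned to a snoRNA, an exon or an intron.

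A start with C followed by at least 4 pyrimidines, the form of a terminal oligopyrimidine tract, was found in 13 of 91 GENCODE transcripts of the 5 hosts and in 2.41% of all 206694. Transcripts of a gene share starts, so these are not independent. The first 30 bases of 1 annotated transcript each of GAS5 and SNHG5, each the transcript with the longest tract of its gene, are shown with the tract in capitals. EPB41L4A-AS1 had 0 such starts among 4 transcripts.
GAS5: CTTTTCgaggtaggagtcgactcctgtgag
SNHG5: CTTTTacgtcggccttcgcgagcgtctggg

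**Figure D1:**
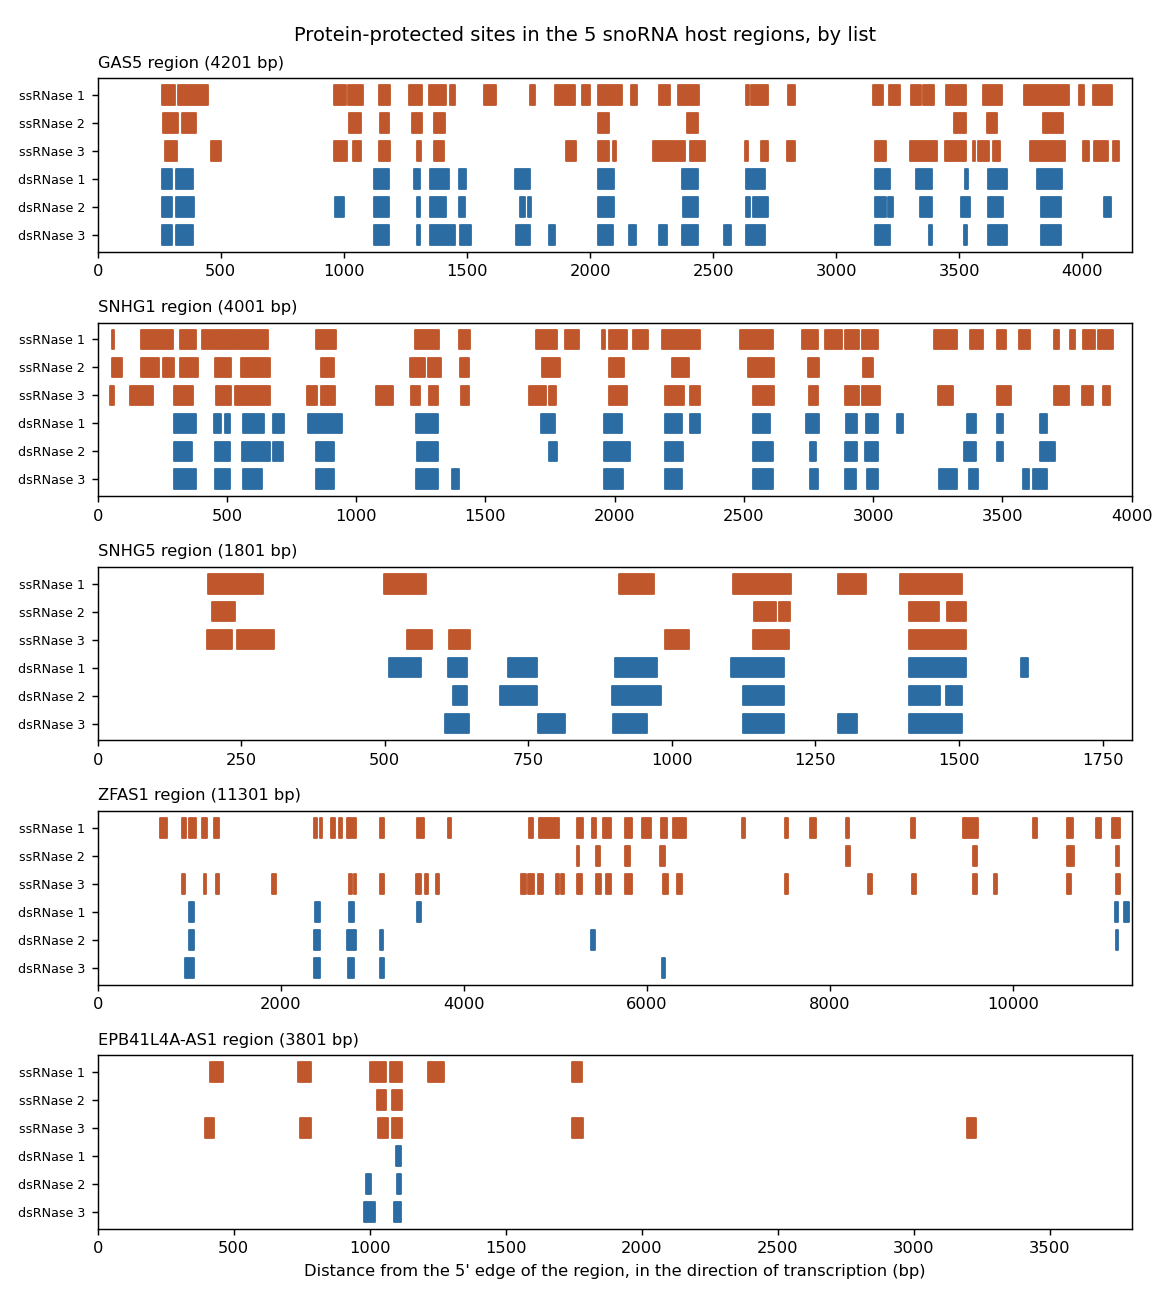
Protected sites in each host region by list. The x axis is the distance in bp from the 5′ edge of the region, each row is a list, and each bar is a site (orange ssRNase, blue dsRNase). In GAS5 and SNHG1 many bars stand in the same columns in all rows, and in SNHG5 a few do. In ZFAS1 most bars on both sides of the middle are ssRNase bars, and the dsRNase bars stand mostly before the middle.

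GAS5, host of SNORD44, SNORD47, SNORD74 and others, had 28, 14 and 26 sites in the ssRNase lists and 19, 21 and 19 in the dsRNase lists. These covered 1619, 540 and 1204 bases against 875, 864 and 954 bases. The numbers of bases overlapped between nucleases, although the dsRNase lists as a whole were shorter. Scaled to 1000000 protected bases of each list, GAS5 took 158.8, 185.2 and 148.6 bases with ssRNase and 1063, 882.5 and 1194 with dsRNase. Every dsRNase value was above every ssRNase value, at 1046 ± 156 against 164 ± 18.9 (SD, n = 3; exact permutation test, two-sided, p = 0.1, which is the lower limit with 3 lists a group).

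SNHG1, host of SNORD25 to SNORD31 and SNORD22, covered 1799, 954 and 1386 bases with ssRNase and 1010, 950 and 916 with dsRNase. Its share was 176.5, 327.3 and 171.1 bases per 1000000 with ssRNase and 1227, 970.3 and 1147 with dsRNase. ssRNase list 2, the shortest ssRNase list, gave the highest of the ssRNase shares. The groups did not overlap, at 225 ± 88.7 against 1115 ± 131 (SD, n = 3; exact p = 0.1).

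SNHG5, host of SNORD50A and SNORD50B, covered 486, 181 and 392 bases with ssRNase and 418, 326 and 343 with dsRNase. Its share was 47.7, 62.1 and 48.4 per 1000000 with ssRNase and 507.6, 333 and 429.3 with dsRNase. The dsRNase mean was 8.03 times the ssRNase mean, 423 ± 87.5 against 52.7 ± 8.13 (SD, n = 3; exact p = 0.1).

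ZFAS1, host of the SNORD12 family shown above, went 1 way in bases and the other way in share. It covered 2134, 396 and 1247 bases with ssRNase and 297, 306 and 314 with dsRNase, so that every ssRNase list held more protected bases (exact p = 0.1). Its share was 209.3, 135.8 and 153.9 per 1000000 with ssRNase and 360.7, 312.5 and 393 with dsRNase, 166 ± 38.3 against 355 ± 40.5 (SD, n = 3; exact p = 0.1). The dsRNase bases were nearly constant, and the ssRNase bases followed the length of the list. The ssRNase lists hold more protected bases as a whole, 2915002 to 10193603 against 798935 to 979087 with dsRNase. How many features separate in bases as ZFAS1 does was not counted.

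EPB41L4A-AS1, host of SNORA13, was the least covered. It had 7, 2 and 6 sites with ssRNase and 1, 2 and 2 with dsRNase. The shares overlapped, at 28.4, 22.6 and 27.3 per 1000000 with ssRNase and 20.6, 35.7 and 83.9 with dsRNase (exact p = 0.4). Scaled to the bases of its own strand they did not overlap, at 62.7, 57.9 and 67.7 against 96.1, 100.8 and 342.8 (exact p = 0.1). The limma log2 difference was then -1.06 (limma adjusted p = 0.149), and 9.48% of all features lay below it. How many features did not overlap on this scale was not counted. By share in the dsRNase lists the order was SNHG1, GAS5, SNHG5, ZFAS1 and EPB41L4A-AS1. The neighbours SNHG1 and GAS5 overlapped in their lists, as did SNHG5 and ZFAS1. The regions differ in length, so protected bases are also given as a percent of the region. In the dsRNase lists that was 24.0% ± 1.19 for SNHG1, 21.4% ± 1.17 for GAS5, 20.1% ± 2.72 for SNHG5, 2.70% ± 0.0753 for ZFAS1 and 1.04% ± 0.666 for EPB41L4A-AS1 (SD, n = 3).

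**Figure D2:**
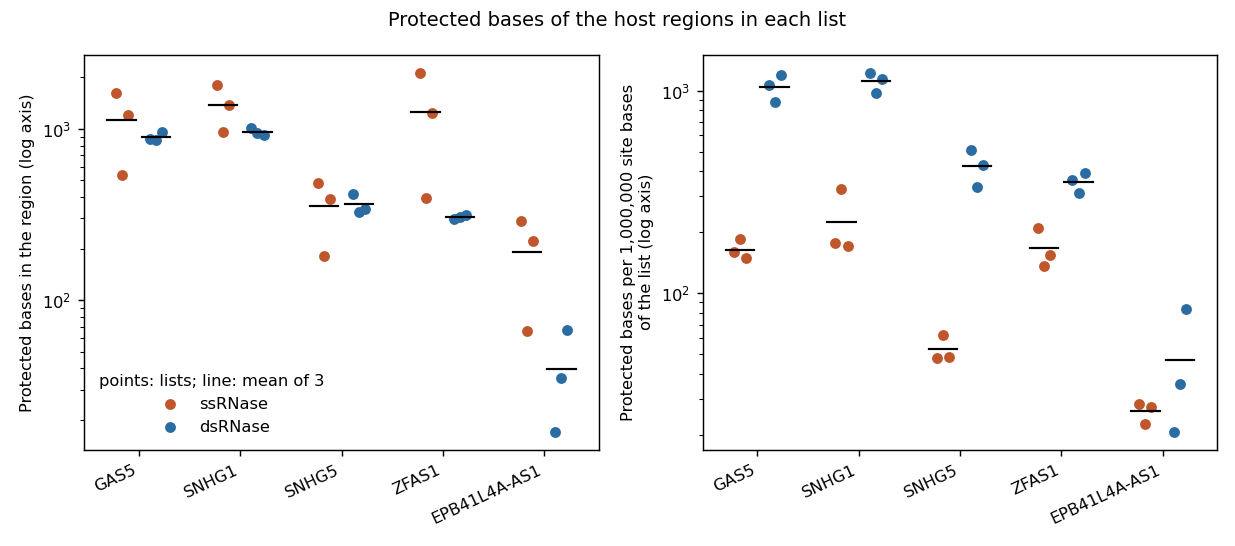
Protected bases of each host in each list, as bases (left) and per 1,000,000 protected bases of the list (right), both on log axes. Points are lists and black lines are means of 3. On the right the blue dsRNase points lie above the orange ssRNase points in GAS5, SNHG1, SNHG5 and ZFAS1 and overlap them in EPB41L4A-AS1, while on the left only ZFAS1 separates, with ssRNase higher.

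The 5 regions were tested beside all stranded 10000 bp windows of the genome with limma on log2(bases per 1000000 + 20), 31431 features in all. This scale understates the change of low features. The difference, ssRNase minus dsRNase, was -2.53 for GAS5 (SE 0.192, limma adjusted p = 0.00449), -2.26 for SNHG1 (SE 0.287, adjusted p = 0.0063), -2.59 for SNHG5 (SE 0.216, adjusted p = 0.00449) and -1.02 for ZFAS1 (SE 0.215, adjusted p = 0.0177). EPB41L4A-AS1 did not pass (-0.42, SE 0.363, adjusted p = 0.449). Thus 4 of 5 hosts were called higher with dsRNase, beside 7.04% of all features called in that direction, 26.6% called in the other and 33.6% in either. In 9.57% of all features all 3 dsRNase lists were above all 3 ssRNase lists.

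All 5 hosts have a site in every list, and the 4482 features that share this property are the closer background. Of these, 34.0% were called higher with dsRNase and 47.6% did not overlap in that direction, with a median difference of -0.69, against 0.43 over all features. Of these features, 2.66% lay below the difference of GAS5, 4.40% below that of SNHG1, 2.39% below that of SNHG5, 33.1% below that of ZFAS1 and 63.8% below that of EPB41L4A-AS1. Over all features the values were 0.531%, 0.916%, 0.48%, 7.84% and 18.0%.

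These calls depended on the fit. Leaving out ssRNase replicate 1, 2 or 3 ended all 4 (limma adjusted p for GAS5 0.0658, 0.0976 and 0.096), with 147, 51 and 45 features called in all. The differences themselves stayed between -2.61 and -2.47 for GAS5 in those fits. Fewer features passed the filter there, 16301, 19692 and 16482, and the SE for GAS5 was 0.617, 0.576 and 0.633. Leaving out any dsRNase replicate kept 4 calls. Further fits were chosen after these losses were seen, and they did not all point 1 way. Without any 1 ssRNase replicate, 4 hosts were called when the windows that pass the filter in all 6 lists were kept. There the list left out still helps to choose the windows, and the SE for GAS5 was 0.201, 0.158 and 0.199. In that form, leaving out dsRNase replicate 3 ended the ZFAS1 call (adjusted p = 0.0505). With scaling within strand, leaving out any 1 ssRNase replicate left 0 hosts and 0 features called by limma. Each time 4 hosts had an unadjusted limma p under 0.05. The features tested were again the reduced 16301, 19692 and 16482. With all lists and scaling within strand, the same 4 hosts were called (SNHG5 -2.44, GAS5 -2.27, SNHG1 -2.00, ZFAS1 -1.71), beside 6.54% of features in that direction. With equal numbers of sites drawn per strand, 3 of the 4 hosts tested were called, beside 7.65%. The call lost there was that of ZFAS1 (limma adjusted p = 0.0824). ZFAS1 was also not called among features with a site in at least 5 lists (adjusted p = 0.0895) or by number of sites (adjusted p = 0.0936).

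Runs of overlapping sites over the 6 lists were joined into blocks, each a stretch protected in at least 1 list. The 5 hosts held 117 blocks, and 21 of them had a site in all 6 lists: 9 in GAS5, 9 in SNHG1, 2 in SNHG5, 1 in EPB41L4A-AS1 and 0 in ZFAS1. That is 17.9% of host blocks, beside 2039 of 293016 blocks (0.696%) over the whole lists. Blocks with ssRNase sites only made up 49.6% of host blocks and 83.4% of all. Blocks with dsRNase sites only made up 7.69% and 4.57%. Blocks are longer where more sites join them, so these shares are given as a description. They were not counted over the features with a site in every list, the closer background. Without ssRNase replicate 2 the number in every list rose from 21 to 28, of which 2 were in ZFAS1.

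**Figure D3:**
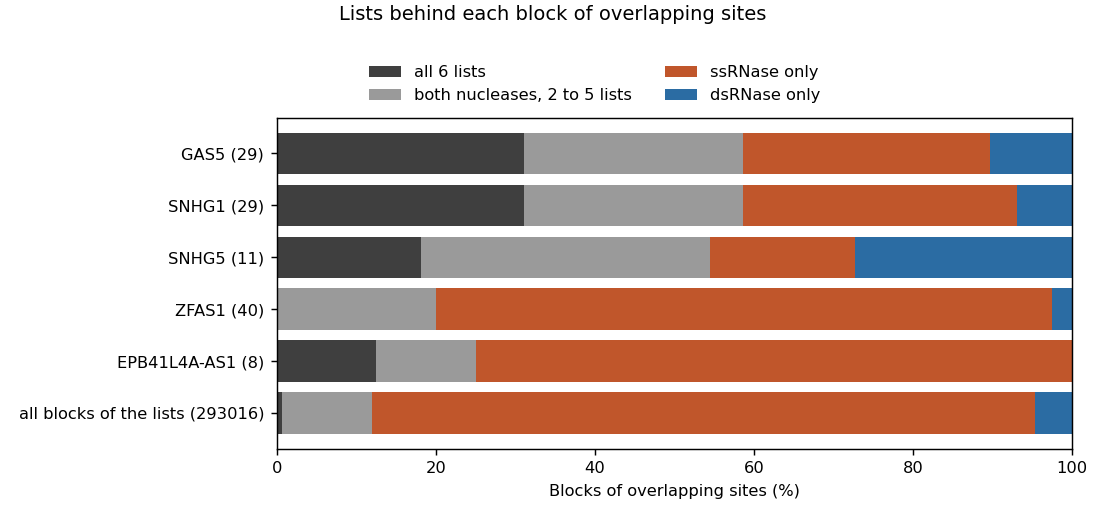
Share of blocks of overlapping sites by the lists behind them, for each host and for all blocks of the lists (number of blocks in brackets). Dark grey is a site in all 6 lists, which makes up 31.0% of blocks in GAS5 and SNHG1, 0% in ZFAS1 and 0.696% over the whole lists.

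The strongest position of the hosts lay in SNHG1. The block at chr11:62621341-62621448 held the best-scoring SNHG1 site in all 6 lists, at the 99.8 to 99.98 percentile of its list by the authors' score. The best ssRNase sites there ran from 62621351 to 62621421, 62621366 to 62621420 and 62621353 to 62621421. The dsRNase sites ran from 62621373, 62621341 and 62621369, and all 3 ended at 62621440. ssRNase list 1 had a second site in the block, from 62621436 to 62621448, which lay nearest to the 5′ end of the RNA and scored low, at the 1.15 percentile. The longest SNHG1 block in all 6 lists, chr11:62622733-62622949, covered 217 bases, of which 129 to 200 were protected in each list.

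In GAS5 the best-scoring dsRNase sites all lay in 1 block, chr1:173833506-173833623, at the 99.6 to 99.7 percentile. The best ssRNase sites of lists 1 and 2 lay elsewhere, in the block chr1:173835069-173835169, at the 99.9 and 99.1 percentile. In list 1 the 2 blocks were nearly level, at 99.862 in the first and 99.894 in the other. The best site of ssRNase list 3 lay in another block, chr1:173833793-173833899, at the 99.4 percentile. The longest GAS5 site with ssRNase was chr1:173833253-173833436 (184 bases) and with dsRNase chr1:173835748-173835851 (104 bases). Of the 117 host blocks, 1 was found in all 3 dsRNase lists and no ssRNase list, chr1:173835683-173835733 in GAS5. It had 29, 24 and 44 protected bases and score ranks of 28.1, 15.6 and 57.8. Over the whole lists 894 of 293016 blocks (0.305%) were of this kind. The reverse, all 3 ssRNase lists and no dsRNase list, held for 8 host blocks, beside 9.05% of all blocks.

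In SNHG5 both blocks found in all 6 lists lay in the 3′ part of the region, at chr6:86387293-86387396 and chr6:86386988-86387102. The first held 101, 56 and 63 protected bases with ssRNase and 92, 72 and 72 with dsRNase. The block in all lists of EPB41L4A-AS1, chr5:111497276-111497318, held 43, 34 and 37 bases with ssRNase and 17, 17 and 27 with dsRNase. Across the 21 blocks the centre of the dsRNase bases lay toward the 3′ end in 11 and toward the 5′ end in 10, with a median shift of 0.49 bases and a range of -17.7 to 35.8.

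ZFAS1 had its best dsRNase site at chr20:47897226-47897318, at the 99.4 percentile of dsRNase list 2. The best ssRNase sites lay elsewhere and differed by list. They were chr20:47900658-47900722 in list 1 (97.1 percentile), chr20:47905092-47905164 in list 2 (72.9) and chr20:47899737-47899796 in list 3 (77.6). Divided at the middle of the region, the dsRNase lists held 261 ± 38.2 bases on the 5′ side and 44.7 ± 32.3 on the 3′ side (SD, n = 3), so that 85.3% lay on the 5′ side. The ssRNase lists held 666 ± 542 and 593 ± 347 bases. This split was chosen after the sites were seen. The ZFAS1 difference turned with the window: in the fixed 10000 bp window with the largest overlap it was 0.75 (limma adjusted p = 0.273). That window starts near the middle of the region and leaves out nearly all of the 5′ side, where most dsRNase bases lay.

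The 5 hosts pooled had a larger share of bases recurring between lists than the lists as a whole. Of the host bases in a dsRNase list, 76.9% were also protected in another dsRNase list, beside 32.9% for all sites. Of the host bases in an ssRNase list, 39.4% were protected in a dsRNase list, beside 5.69%. The shares were 51.7% in SNHG1, 52.0% in GAS5 and 56.1% in SNHG5, but 8.08% in ZFAS1 and 16.4% in EPB41L4A-AS1. Within ssRNase the values were 60.2% and 49.2%, and these pairs ranged from 30.6% to 90.7% with the lengths of the lists. ZFAS1 lay below the whole lists for dsRNase bases found in ssRNase lists (37.7% beside 42.6%) and within ssRNase (48.4% beside 49.2%). All 5 hosts have a site in every list, which favours sharing. The shares were not computed over the other features with that property, the closer background. Pairs share lists, so no test was made.

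**Figure D4:**
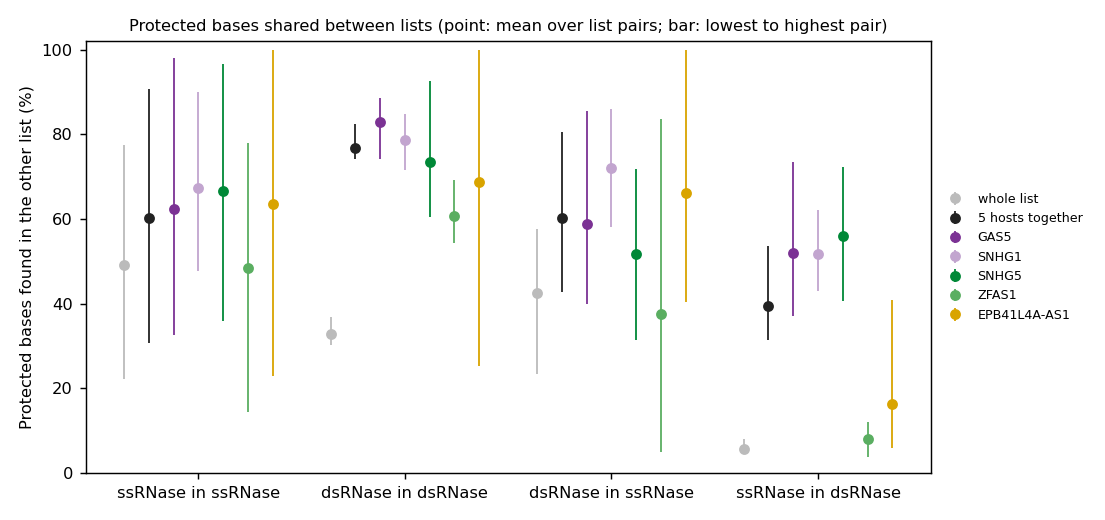
Percent of protected bases of 1 list that are protected in another, by nuclease of the pair, for whole lists, the 5 hosts together and each host. Points are means over list pairs and bars run from the lowest to the highest pair. For ssRNase bases found in dsRNase lists, GAS5, SNHG1 and SNHG5 lie above 50% and ZFAS1 lies near the whole lists.

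Pooled over the 5 hosts, the median site scored above the middle of every list, which is a rank of 50. By host this did not always hold. With ssRNase the median rank was 39.4 for SNHG5 in list 3 and 49.8 for ZFAS1 in list 2. The lists differ in length by nuclease, so ranks are given for each nuclease and not compared between them. The median rank was 68.0 ± 9.03 with ssRNase and 92.2 ± 5.03 with dsRNase (SD, n = 3). In the best-scoring 10% of their list stood 26.5% of host sites with ssRNase and 53.9% with dsRNase. Host sites had a median length of 46.3 ± 4.51 bases with ssRNase and 47.5 ± 1.80 with dsRNase, beside 43.0 and 33.3 for the lists.

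**Figure D5:**
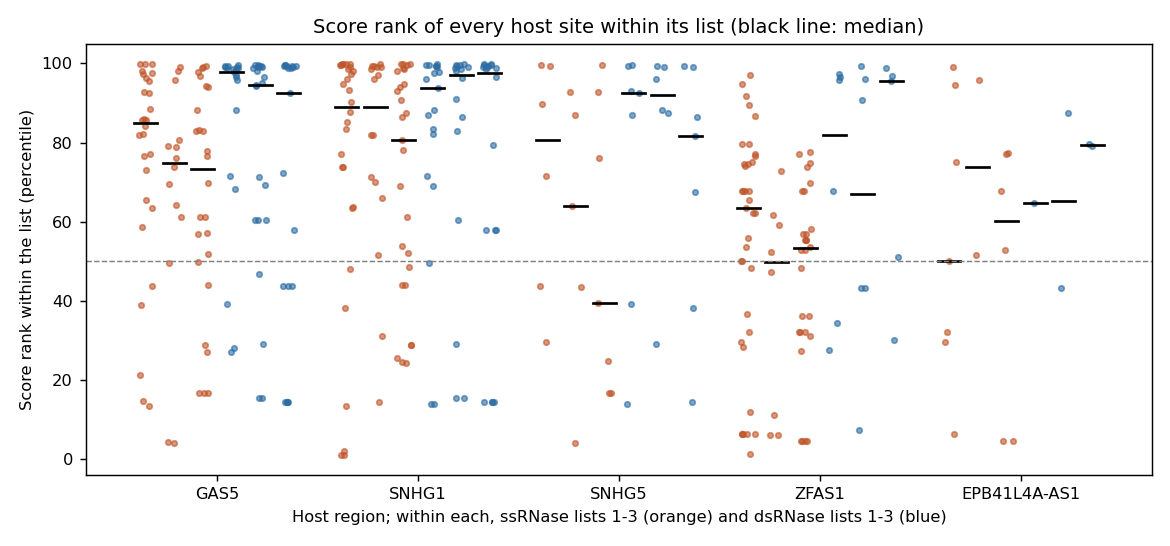
Score rank of every host site within its list, as a percentile, by host and list. Points are sites, black lines are medians and the dashed line is 50, the middle of a list. The medians of GAS5 and SNHG1 lie above the dashed line in all 6 lists, and ranks of the 2 nucleases come from lists of unequal length.

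Sites in the 5 regions lay almost all on the strand of the host RNA. The same share over all sites of the lists was not computed, so this is not shown to be particular to the hosts. On the opposite strand of the 5 regions there was 1 site of 45 bases in ssRNase list 1 and 1 of 41 bases in ssRNase list 3, both in the GAS5 region, and 0 in the other 4 lists.

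The 3 windows most like the mean of the hosts over the 6 lists, by Euclidean distance on the log2 scale, were chr17:74550001-74560000 on the plus strand (distance 0.397), chr1:8930001-8940000 minus (0.408) and chr2:10920001-10930000 minus (0.494). The first took 107 ± 12.8 bases per 1000000 with ssRNase and 344 ± 37.4 with dsRNase (SD, n = 3). No gene is named for them, as no hg19 annotation was used.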

How the data were processed

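Formaldehyde cross-linked HEK293T lysates gave 12 libraries in 4 groups of 3. Per the labels' protocols, a duplex-specific nuclease step, which lowers abundant molecules, was part of library making. cutadapt 0.9.5, TopHat2 2.0.9 and hg19 are named in the submitters' processing notes, and the file names give CSAR as the caller, with an FDR of 5%. The authors deposited 6 replicate lists of stranded sites, each site with a score of the authors' own, used here only as a rank within a list. The authors' merged lists were not used. Depth is not given.

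Positions were read as 1-based and inclusive. Protected bases per 1000000 of a list were compared with limma 3.58.1 (R 4.3.3) on log2(value + 20), over 10000 bp windows and the 5 regions with a site in at least 3 lists, with Benjamini-Hochberg adjustment and a threshold of 0.05. Single values used exact permutation tests. The code was tested on simulated data. The members, lists and tests were chosen with earlier results of these data known. Named positions are the stretches in most lists, the longest sites and the best-ranked sites, and the 3 nearest windows.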

Additional observations from a re-analysis of the deposited data

How the results depend on the processing

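Leaving out each replicate in turn gave 0 to 4 hosts called and 45 to 10081 features. The log2 difference ranged from -2.64 to -2.43 for GAS5, -2.54 to -2.11 for SNHG1, -2.75 to -2.46 for SNHG5, -1.18 to -0.90 for ZFAS1 and -0.73 to -0.05 for EPB41L4A-AS1. The ssRNase minus dsRNase difference in protected bases ranged from -25.7 to 513.8 for GAS5, 211.3 to 633.8 for SNHG1, -75.8 to 76.7 for SNHG5, 515.8 to 1385 for ZFAS1 and 103.8 to 215.3 for EPB41L4A-AS1. Shared host bases ranged from 74.5% to 80.4% for dsRNase in dsRNase, 51.2% to 68.1% for dsRNase in ssRNase, 32.6% to 43.3% for ssRNase in dsRNase and 56.6% to 63.2% within ssRNase, and blocks in every list from 21 to 28. 2 further forms were added after the losses were seen. With windows of all 6 lists kept, the differences were the same, with 3 or 4 hosts and 8017 to 12025 features called; ZFAS1 was lost without dsRNase replicate 3 (-0.95). Scaled within strand, 0 hosts and 0 features were called without ssRNase replicate 1, 2 or 3, and 4 hosts and up to 12243 features without a dsRNase replicate. The strand-scaled differences without ssRNase replicates 1, 2 and 3 were -2.30, -2.33 and -2.19 for GAS5, -1.90, -2.26 and -1.83 for SNHG1, -2.42, -2.52 and -2.38 for SNHG5, and -1.82, -1.62 and -1.69 for ZFAS1. Over all strand-scaled fits SNHG5 reached -2.36, ZFAS1 ranged from -2.00 to -1.55, and EPB41L4A-AS1 from -1.34 to -0.52.

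Lists with the same replicate number did not deviate together (r across features 0.02, -0.06 and -0.03). Of the 31431 features 19859 had sites of both nucleases, and the others pull r toward 0. These values therefore cannot show whether the numbers pair the lists. With the number as a replicate block, 0 hosts and 0 features passed in limma (11366 features at an unadjusted p under 0.05), with the differences at -2.53 for GAS5, -2.26 for SNHG1, -2.59 for SNHG5 and -1.02 for ZFAS1 (adjusted p 0.0513 for the first 3, 0.0737 for ZFAS1). The block with scaling within strand, added after seeing the data, called 6021 features and 4 hosts.

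Of 31431 features 10562 were called. Median scaling called 4194, of which 3715 were higher with dsRNase and 479 with ssRNase, and at least 5 lists with a site left 1295. Equal numbers of sites per strand left 1519. ZFAS1 was not called with at least 5 lists (-1.02, limma adjusted p = 0.0895) or by number of sites (-0.49, adjusted p = 0.0936). It was also not called with equal numbers of sites (-1.36, adjusted p = 0.0824). The ZFAS1 difference reversed in the fixed window (0.75). That window runs past the 3′ end of the region and leaves out nearly all of its 5′ side. Most dsRNase bases lay on the 5′ side. With all sites the difference in protected bases was 223.3 for GAS5, 421 for SNHG1, -9.33 for SNHG5, 953.3 for ZFAS1 and 152.3 for EPB41L4A-AS1. With equal numbers of sites it was -508.3 for GAS5, -699.3 for SNHG1, -309 for SNHG5, -138.7 for ZFAS1 and -28 for EPB41L4A-AS1. The sign reversed in every host but SNHG5, by construction, since the longer ssRNase lists are cut down. EPB41L4A-AS1 then had too few lists for the test. Counted as sites, sharing was 81.8% for dsRNase in dsRNase, 69.1% for dsRNase in ssRNase (62.8% when at least 50% of a site must overlap) and 51.9% for ssRNase in dsRNase. Unknown depth limits what an absent site can show.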
